A study of Mus musculus with 18 samples.

Results

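Gene expression was compared between 2 sets of arrays from a study of mouse immune cells treated with a cell wall extract: the arrays whose titles carry codes 32 to 37 and those whose titles carry codes 12 to 22. Each set holds 6 arrays, a pair for each of the times 0 h, 1 h and 4 h, so 12 of the 18 arrays of the series were compared. Differences are given as codes 32 to 37 minus codes 12 to 22, with the time as a block, and the account centres on genes that differed at all 3 times, the 0 h samples included.

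Samples at 0 h were controls, and those at 1 h and 4 h were taken after the extract, on both sets alike. The series design says that knockout mice were used. The labels give no genotype, strain, sex, age, tissue, cell type, dose, animal or batch for any array, and they say nothing of what the codes stand for. Genotype, strain, cell preparation and handling therefore cannot be told apart between the sets. No label says that the 2 arrays of a set at one time came from separate animals or cultures, so the p-values measure the spread between these arrays, which may be partly technical.

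Some transcripts that mark macrophages were bright: Adgre1, Csf1r, Lyz2 and Lgals3 had mean log2(signal + 16) levels of 14.34, 15.07, 15.45 and 15.42 over the 12 arrays. Other members of the same list were dimmer, such as Itgam (11.22), Mertk (9.49), Marco (7.34) and Cd163 (6.74). Of 10 resident peritoneal macrophage markers 5 were measured, and Gata6, Timd4 and Vsig4 did not pass the filter on low signals. Of the defining T cell genes Cd3d, Cd3e and Cd3g, and of the B cell genes Cd79a, Ms4a1 and Pax5, none passed the filter on low signals. The summed signal of 13 macrophage markers lay between 211260.0 and 260510.0 on codes 12 to 22 and between 210410.0 and 301410.0 on codes 32 to 37.

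Several arrays stood apart, which bears on every comparison. The 3' to 5' signal ratio of the actin control probe sets, a common measure of RNA and labelling quality, was 2.44 on code 36 (1 h) and 1.98 on code 37 (4 h), against 1.20 to 1.34 on the other 10 arrays. The Gapdh ratio was 1.28 and 1.51 on those arrays and 0.723 to 0.832 on the others. Code 14, labelled 1 h, carried little of the response seen on the other 1 h arrays: Tnf, an early inflammatory cytokine, had a signal of 1557 there, against 19647, 10864 and 11363 on codes 20, 33 and 36, and of 232 and 103 at 0 h on codes 12 and 18.

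The codes also fall into 4 runs of 3 neighbours (12 to 16, 18 to 22, 32 to 34 and 35 to 37), each with 1 array per time. The Y-linked transcript Eif2s3y had signals of 1264 to 1729 in the run 18 to 22 and 1236 to 1414 in the run 32 to 34, but 0.869 to 32.4 in the run 12 to 16 and 3.20 to 25.2 in the run 35 to 37. Kdm5d and Uty, also Y-linked, were high and low in the same runs, and Xist gave 3696 to 13257 on the 12 arrays. Each set thus holds 1 run with and 1 run without Y-linked signal. Residuals from the set and time means correlated at 0.0992 to 0.151 within the runs of codes 12 to 22 and at 0.181 to 0.425 within those of codes 32 to 37. With 2 arrays per set and time, the residuals of the runs of one set mirror each other, so each set gives 3 such values. If a run is a single source of cells, each set holds 2 sources and not 6, and this limits every p-value below. The labels do not settle it.

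As background, macrophages are phagocytes that sense microbial wall material through pattern recognition receptors such as TLR2, a surface receptor for bacterial lipoproteins. They answer with a rapid wave of cytokines and chemokines and with IL-10, a cytokine that restrains inflammation. Their resting state varies with tissue, growth factor and culture, and shows in genes of adhesion, proliferation and antigen presentation that are set before any stimulus. Collagens and smooth muscle actin are known as products of fibroblasts and contractile cells, which often accompany macrophages in tissue and in culture.

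With limma and Benjamini-Hochberg adjustment at 0.05, 3404 of 25775 probe sets differed between the sets, 13.2% of those tested, 1904 higher and 1500 lower on codes 32 to 37. The 1904 made up 55.9% of the calls, a share that became 45.1% when each array was centred on its median, so the balance of higher and lower calls rests on the scaling. At the level of genes, each represented by its brightest probe set, 1067 of 11721 were higher (9.1%) and 740 were lower (6.31%). The median log2 difference over all genes tested was 0.011. A called gene was taken to hold at all 3 times where both arrays of one set lay above both of the other at 0 h, at 1 h and at 4 h. By that rule 871 genes were higher (7.43% of those tested) and 576 lower (4.91%).

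Among the genes that held, 362 were at least 2-fold higher and 88 at least 2-fold lower, fold changes being on the log2(signal + 16) scale, which understates those of dim genes. For 394 of the 871 higher genes and 240 of the 576 lower genes, all 6 arrays of one set lay beyond all 6 of the other, whatever the time. Over all 11721 genes tested this was so for 413 above and 283 below. On the remaining 6 arrays of the series, codes 44 to 54, the mean level of the 871 higher genes was at or above that of codes 32 to 37 for 267, in between for 369, and at or below that of codes 12 to 22 for 235. For the 576 lower genes these counts were 115, 387 and 74. The genes were chosen for their difference between the other two sets, so these counts are a description.

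**Figure D1:**
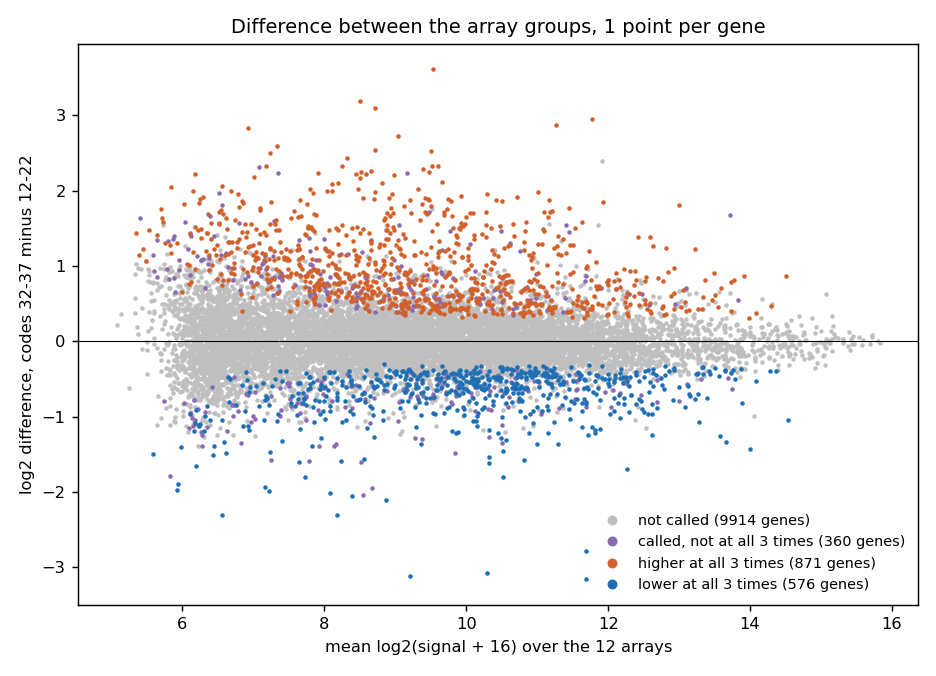
Mean log2(signal + 16) over the 12 arrays (horizontal axis) against the log2 difference, codes 32 to 37 minus 12 to 22 (vertical axis), with 1 point per gene. The 871 genes higher and the 576 lower at all 3 times are coloured, and they lie at all but the highest signal levels.

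Leaving out codes 36 and 37 left 10 arrays and gave 4077 called probe sets. Of the 3404 calls, 2606 remained (76.6%), which is 63.9% of the 4077, and 0 of them changed sign. Of the 1447 genes that held, 1182 were still called, 713 higher and 469 lower. With the 4 runs as a random block (estimated correlation 0.103), limma called 2198 probe sets, all among the 3404, and 1077 of the 1447 genes. On the means of the 4 runs, 2 against 2, limma called 0 probe sets. At an unadjusted p under 0.05 there were 4907, and the lowest adjusted p was 0.059.

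The 12 largest higher genes and the 12 largest lower genes that held at all 3 times were all still called without codes 36 and 37 and with the runs as a random block. For some of them the signals are given below by array, in the order of the codes within each time. For others only the range of each set or the differences are given.

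Crem, which encodes cAMP-responsive transcription factors that include the repressor ICER, had the largest higher difference. Its signals were 258 and 282 at 0 h, 185 and 219.6 at 1 h, and 147 and 125 at 4 h on codes 12 to 22, against 7123 and 2701 at 0 h, 5187 and 1789 at 1 h, and 1618 and 966 at 4 h on codes 32 to 37. No array of codes 32 to 37 came below 966, and none of codes 12 to 22 came above 282. The difference was 3.61 (SE 0.31, adjusted p = 0.00019, 12.2-fold), and 2 of its 3 probe sets were called.

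Cytip, a leukocyte protein that binds cytohesins and modulates adhesion, was measured at 2845 and 2494 at 0 h, 2361 and 2142 at 1 h, and 384 and 258 at 4 h on codes 12 to 22. On codes 32 to 37 it was measured at 23345 and 21106 at 0 h, 20143 and 19081 at 1 h, and 2428 and 1848 at 4 h. Both sets had their lowest signals at 4 h, and the gap between the sets was similar at each time, 3.05, 3.12 and 2.69 on the log2 scale. Its adjusted p was 4.1e-06, the lowest of the table together with that of Ccr2.

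Mgp, matrix Gla protein, an inhibitor of calcification, gave 115 and 181 at 0 h, 78.9 and 207 at 1 h, and 83.2 and 149 at 4 h on codes 12 to 22, against 1312 and 1549.9 at 0 h, 1116 and 1381 at 1 h, and 922 and 1125 at 4 h on codes 32 to 37. The sets did not overlap, and time had little part: the difference was 3.16 at 0 h, 3.11 at 1 h and 3.01 at 4 h. Thbs1, the matrix glycoprotein thrombospondin 1, gave 1033 and 846 at 0 h, 1034 and 1018 at 1 h, and 729.8 and 750.3 at 4 h on codes 12 to 22, against 18019 and 13104 at 0 h, 18421 and 5832 at 1 h, and 2976 and 1079 at 4 h on codes 32 to 37. Here the gap narrowed from 4.02 at 0 h to 1.26 at 4 h, where the code 37 array lay close to the highest of codes 12 to 22. The change of the gap with time did not pass the interaction test for this gene (adjusted p = 0.33).

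Receptors and signalling proteins made up much of the rest. Gng4, a G protein gamma subunit, lay between 54.1 and 259 on codes 12 to 22 and between 474 and 2328 on codes 32 to 37 (log2 difference 3.18, SE 0.22, adjusted p = 5.9e-05). Of its 3 probe sets, 2 were called. Gab1, a docking protein downstream of receptor tyrosine kinases, lay between 76.2 and 275 on codes 12 to 22 and between 562 and 1434 on codes 32 to 37 (2.54, adjusted p = 0.00025). Il1r2, the decoy receptor for interleukin 1, lay between 9.15 and 122 on codes 12 to 22 and between 252 and 581 on codes 32 to 37 (2.59, adjusted p = 0.0026). It passed the filter on low signals only with codes 32 to 37, so the set where it was high also chose it for testing. Osmr, the oncostatin M receptor subunit, lay between 3.77 and 89.3 on codes 12 to 22 and between 244 and 517 on codes 32 to 37 (2.50, adjusted p = 0.00060), and 1 of its 2 probe sets was called. Clec4n, also known as Dectin-2, a receptor for fungal mannans, lay between 158 and 587 on codes 12 to 22 and between 887 and 3351 on codes 32 to 37, and the sets separated within each time (2.52, adjusted p = 0.00041). Arg2, the mitochondrial arginase, overlapped over all arrays because it was brighter at 4 h on both sets, but was higher on codes 32 to 37 at each time, by 2.40, 2.79 and 2.10. Dmkn, a secreted protein first known from epidermis, was dim on codes 12 to 22, at 38.7 and 3.61 at 0 h, 49.5 and 43.2 at 1 h, and 101 and 2.28 at 4 h, and reached 519 and 332 at 0 h, 629.7 and 265 at 1 h, and 201 and 142 at 4 h on codes 32 to 37.

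**Figure D2:**
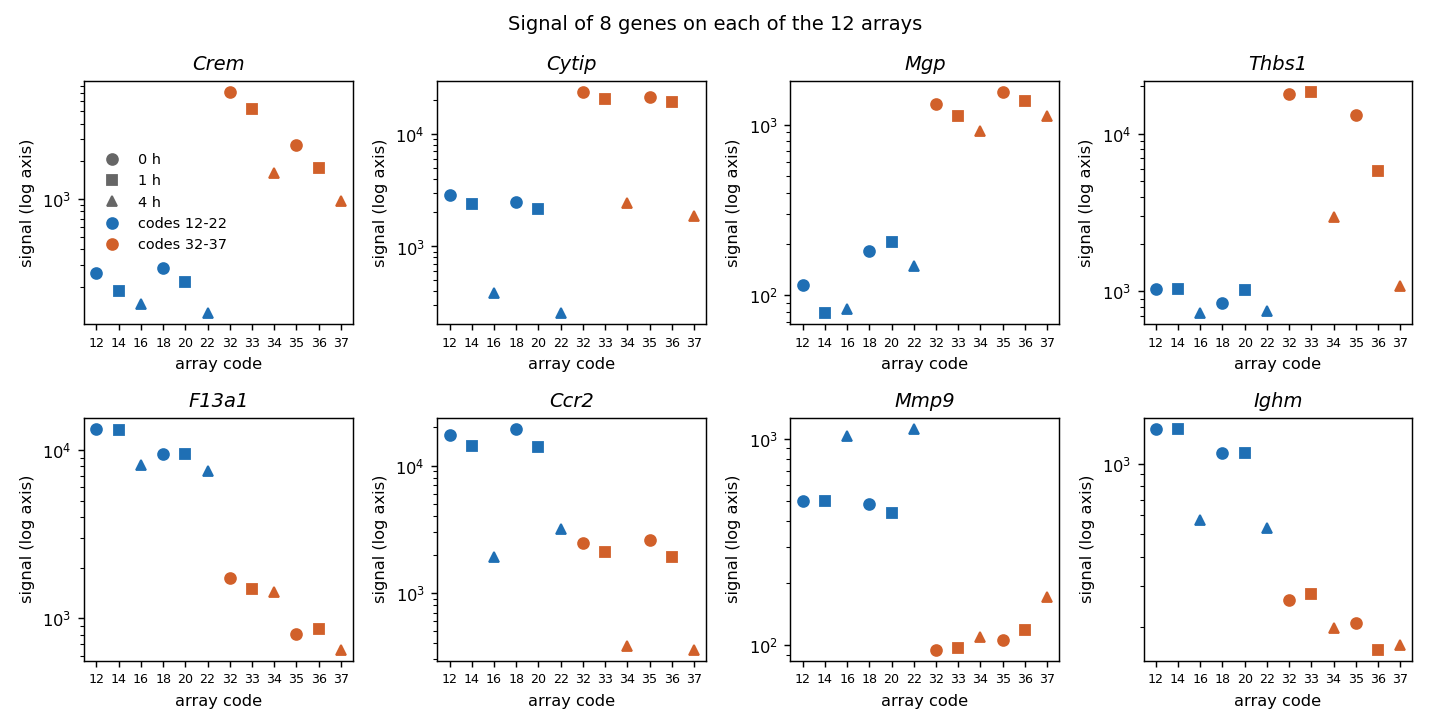
Signal of 8 genes on each of the 12 arrays (horizontal axis: array code; vertical axis: signal on a log axis), with blue for codes 12 to 22, orange for codes 32 to 37, and circle, square and triangle for 0, 1 and 4 h. Crem, Cytip, Mgp and Thbs1 were higher and F13a1, Ccr2, Mmp9 and Ighm lower on codes 32 to 37 at each time.

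Of the genes lower on codes 32 to 37, F13a1, the A subunit of coagulation factor XIII, known as a marker of monocytes and some macrophages, differed most. Its signals were 13335 and 9422 at 0 h, 13185 and 9388 at 1 h, and 8095 and 7458 at 4 h on codes 12 to 22, against 1741 and 804 at 0 h, 1494 and 859 at 1 h, and 1435 and 652 at 4 h on codes 32 to 37. The lowest array of codes 12 to 22 had 7458 and the highest of codes 32 to 37 had 1741 (log2 difference -3.16, SE 0.25, adjusted p = 0.00011).

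Ccr2, the receptor for the monocyte chemoattractant CCL2, gave 17374 and 19456 at 0 h, 14373 and 14081 at 1 h, and 1896 and 3190.1 at 4 h on codes 12 to 22, against 2452 and 2622 at 0 h, 2081 and 1909.5 at 1 h, and 384 and 358 at 4 h on codes 32 to 37. Its signal was lowest at 4 h on both sets, and the sets differed by -2.85, -2.83 and -2.68 at 0, 1 and 4 h (adjusted p = 4.1e-06). Of its 4 probe sets, 3 were called, all lower.

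Rasgrp3, an exchange factor for Ras and Rap GTPases, gave 4171 and 3595 at 0 h, 4336 and 4077 at 1 h, and 264 and 344 at 4 h on codes 12 to 22, against 235 and 207 at 0 h, 186 and 305 at 1 h, and 135 and 102 at 4 h on codes 32 to 37. Its gap was -4.04 at 0 h and -1.25 at 4 h, when codes 16 and 22 had 264 and 344. Cap1, an actin-binding protein that recycles cofilin and actin monomers, lay between 2359.9 and 4765 on codes 12 to 22 and between 155 and 1541 on codes 32 to 37 (-3.07, adjusted p = 0.0011). Padi4, which converts arginine to citrulline in proteins, lay between 84.5 and 371 on codes 12 to 22 and between 2.48 and 92.3 on codes 32 to 37, with a lower signal in the run 18 to 22 than in the run 12 to 16 (-2.30, adjusted p = 0.0079). It passed the filter on low signals only with codes 12 to 22, so the set where it was high also chose it for testing.

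The other lower genes showed smaller gaps of -2.06 to -1.94. Itga8, an integrin alpha chain that pairs with beta 1, lay between 579.8 and 803 on codes 12 to 22 and between 96.2 and 229 on codes 32 to 37 and hardly moved with time. Slco2b1, an organic anion transporter, lay between 141 and 981 on codes 12 to 22 and between 35.4 and 211 on codes 32 to 37, and Clec2i, a C-type lectin-like protein, lay between 85.6 and 532 on codes 12 to 22 and between 9.16 and 119.8 on codes 32 to 37. Tet3, which oxidises 5-methylcytosine in DNA, lay between 43.7 and 166 on codes 12 to 22 and between 3.70 and 24.6 on codes 32 to 37. Clec2i and Tet3 passed the filter on low signals only with codes 12 to 22, so the set where they were high also chose them for testing. Chst7, a sulfotransferase acting on glycosaminoglycans, was brighter at 4 h on both sets, at 886 and 890.2 on codes 16 and 22 and at 178 and 162 on codes 34 and 37.

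Before the extract, with 2 arrays against 2 at 0 h and the spread taken from all 12, 198 of 11721 genes were called (1.69%), 113 higher and 85 lower. At an unadjusted p under 0.05 there were 2028. Of the 198, 133 held at all 3 times, beside 1447 of all 11721. Of the 24 genes with the largest differences, 17 were called at 0 h alone, among them Cytip (adjusted p = 0.0047), Ccr2 (0.0047), Rasgrp3 (0.0031), Mmp9 (0.0078), Crem (0.018) and F13a1 (0.021). The other 7 were Dmkn, Sparc, Clec4n, Arg2, Cap1, Padi4 and Clec2i, with adjusted p-values between 0.051 and 0.41. The same 0 h arrays had a part in ranking these 24 genes and in the rule for holding. The 0 h counts among them and among the genes that held are therefore a description and no separate support.

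Most matrix and fibroblast genes were higher on codes 32 to 37. Of 15 measured members 14 were called higher and 0 lower, 12 of them at all 3 times, against the 9.1% of all genes tested that were called higher. Their median log2 difference was 1.95, beside 0.011 over all genes tested. The filter used all 18 arrays, so a gene bright on codes 44 to 54 could pass through those. For 11 of the 15, all 6 arrays of codes 32 to 37 lay above all 6 of codes 12 to 22, as for 413 of the 11721 genes tested. In samples of many cells, fewer cells of a type and less RNA per cell cannot be told apart.

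Among the fibrillar collagens, Col1a2 gave 290.3 and 396 at 0 h, 329 and 430.1 at 1 h, and 202 and 269 at 4 h on codes 12 to 22, against 1891 and 2102 at 0 h, 1388 and 2163 at 1 h, and 1049.5 and 1437 at 4 h on codes 32 to 37 (log2 difference 2.33, SE 0.16, adjusted p = 5.9e-05). Col3a1 lay between 121 and 227 on codes 12 to 22 and between 581 and 979.5 on codes 32 to 37 (2.24, adjusted p = 6.7e-05), and Col1a1 differed by 2.02 (adjusted p = 0.0016). Collagen chains of smaller fibrils and beaded filaments were higher as well: Col5a1 by 1.97, Col5a2 by 1.48, Col6a1 by 2.32 and Col6a2 by 0.79.

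Sparc, a secreted protein that binds collagen, gave 194 and 309 at 0 h, 107 and 271 at 1 h, and 121 and 204 at 4 h on codes 12 to 22, against 1304 and 1757 at 0 h, 892 and 2139 at 1 h, and 838 and 1536 at 4 h on codes 32 to 37 (log2 difference 2.73, SE 0.29, adjusted p = 0.00050). Fstl1, a secreted glycoprotein, differed by 2.21, the small proteoglycan Bgn (biglycan) by 1.95, Postn (periostin) by 1.85 and the crosslinking enzyme Loxl1 by 1.51. Dcn (decorin) and the fibroblast receptor Pdgfra were called, by 0.87 and 0.86, but did not separate at every time. Pdgfrb was not called (0.30, adjusted p = 0.69), and Lum and Thy1 did not pass the filter on low signals. Without codes 36 and 37, 13 members were called higher, and 14 with the runs as a random block.

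Contractile genes were higher too, with 8 of 8 measured members called at all 3 times and a median difference of 1.49. The share higher at all 3 times was 7.43% over all genes tested. The count was 7 without codes 36 and 37 and 7 with the runs as a random block. Acta2, smooth muscle actin, gave 1679 and 1911 at 0 h, 1753 and 1778 at 1 h, and 2114 and 1702 at 4 h on codes 12 to 22, against 5664 and 6994 at 0 h, 4268 and 5969 at 1 h, and 4254 and 6187 at 4 h on codes 32 to 37 (log2 difference 1.58, SE 0.14, adjusted p = 0.00026). Tagln, an actin-binding protein of smooth muscle also called transgelin, lay between 258 and 387 on codes 12 to 22 and between 914 and 1709 on codes 32 to 37 (2.02, adjusted p = 0.00033). Myl9, a regulatory myosin light chain, lay between 160.2 and 280.2 on codes 12 to 22 and between 646 and 1342 on codes 32 to 37 (2.10, adjusted p = 5.8e-05), and Tpm2, a tropomyosin, between 501 and 543 on codes 12 to 22 and between 1056 and 2025 on codes 32 to 37 (1.51, adjusted p = 0.00072). Actg2 and Cald1 differed by 1.47 and 1.47, and Tpm1 and Cnn2 by 0.78 and 0.44. The late smooth muscle genes Myh11, Cnn1 and Des did not pass the filter. Within codes 32 to 37, Acta2 had signals of 5969 to 6994 in the run 35 to 37 and 4254 to 5664 in the run 32 to 34.

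Both groups were brighter still on codes 44 to 54. The summed signal of the 17 matrix and fibroblast genes on the array was 2776 to 4030.1 on codes 12 to 22, 8621 to 15892 on codes 32 to 37 and 30414 to 41520.0 on codes 44 to 54. That of the 11 contractile genes on the array was 6047 to 7273, 13437 to 20936 and 36306 to 50675. The part of these transcripts' source cells in the other differences below was not tested.

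**Figure D3:**
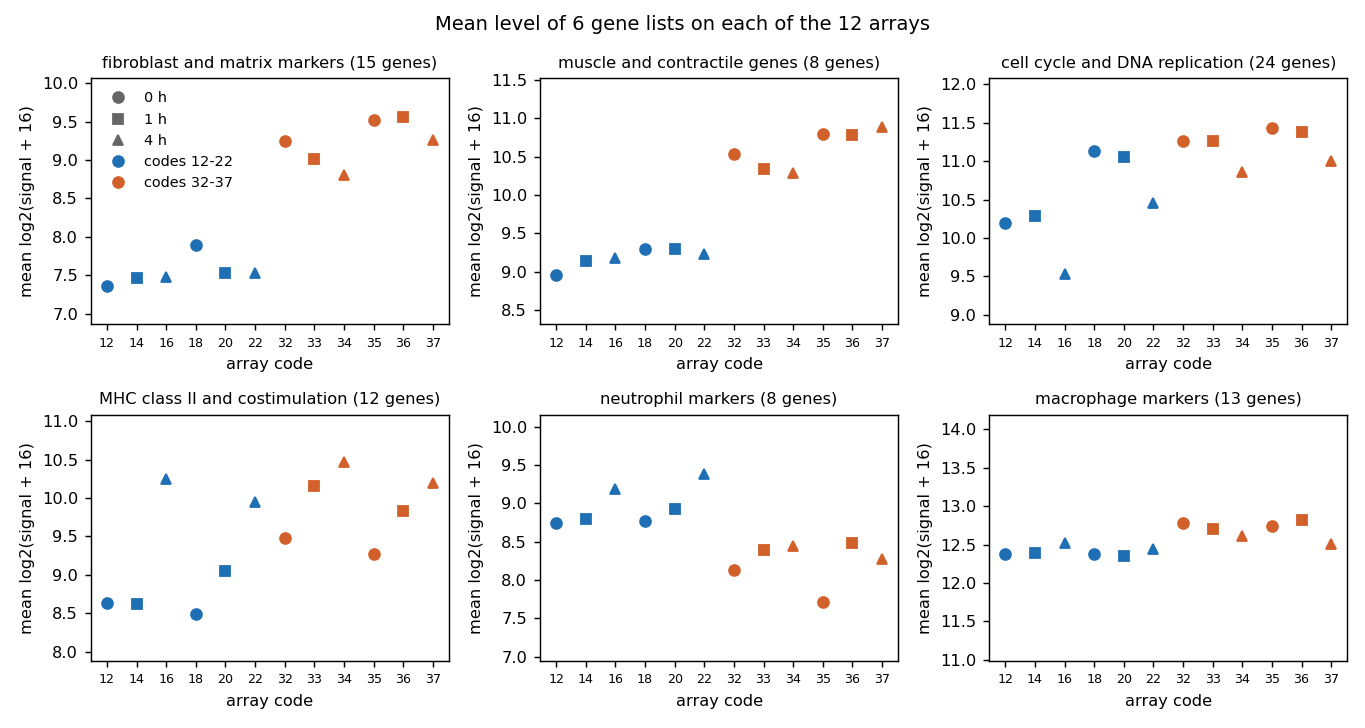
Mean log2(signal + 16) of the measured members of 6 gene lists (vertical axis) on each of the 12 arrays (horizontal axis: array code), with blue for codes 12 to 22, orange for codes 32 to 37, and circle, square and triangle for 0, 1 and 4 h. All panels span the same number of log2 units, the matrix and contractile lists separate the sets on every array, and the cell cycle list also differs between the runs 12 to 16 and 18 to 22.

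Cell cycle genes were higher for the most part. Of 24 measured members 14 were higher on codes 32 to 37, 13 of them at all 3 times, and 2 were lower, and the median difference was 0.90. Over all genes tested 9.1% were higher, 7.43% at all 3 times, and 6.31% were lower. Without codes 36 and 37 these counts were 11 and 2, and with the runs as a random block 11 and 1, and without code 14 they were 11 and 0. For 10 of the 24, all 6 arrays of codes 32 to 37 lay above all 6 of codes 12 to 22, as for 413 of the 11721 genes tested.

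The higher members act mostly in mitosis. Plk1, a kinase that drives mitotic entry and spindle assembly, gave 285 and 672 at 0 h, 219 and 682 at 1 h, and 123 and 507 at 4 h on codes 12 to 22, against 1501 and 1669 at 0 h, 1515 and 1251 at 1 h, and 1204 and 1013 at 4 h on codes 32 to 37 (log2 difference 1.88, SE 0.36, adjusted p = 0.0078). Cdc20, which activates the anaphase-promoting complex, lay between 933 and 4068 on codes 12 to 22 and between 5887 and 8448 on codes 32 to 37 (1.85, adjusted p = 0.0064). Birc5 (survivin), part of the chromosomal passenger complex, lay between 864 and 2628 on codes 12 to 22 and between 3929 and 5806 on codes 32 to 37 (1.77, adjusted p = 0.0019), and Ccnb2, a mitotic cyclin, between 714 and 2243 on codes 12 to 22 and between 2720.4 and 5463 on codes 32 to 37 (1.72, adjusted p = 0.0054). Aurka, a spindle pole kinase, differed by 1.70, the checkpoint kinases Bub1 and Bub1b by 1.56 and 1.40, and Cdk1 by 1.28. The proliferation marker Mki67 differed by 1.39 and the topoisomerase Top2a by 1.38.

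Values of genes of DNA replication lay on both sides of 0. All 6 measured subunits of the Mcm helicase, which unwinds DNA at replication origins, had values below 0, and 2 were called lower: Mcm2 (-0.83, adjusted p = 0.048) and Mcm6 (-0.79, adjusted p = 0.029). Neither separated at all 3 times, and neither was called without code 14. Pcna, the sliding clamp, had -0.24 and Tyms, thymidylate synthase, -0.43, and neither was called. Cdc6, a licensing factor, and Ccne2, an S phase cyclin, were higher by 0.87 and 0.91. Rrm2, a subunit of ribonucleotide reductase, had 0.87 (adjusted p = 0.062) and Ccne1, a cyclin of the G1 to S transition, 0.73 (adjusted p = 0.086), and neither was called.

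Cell cycle levels also differed inside codes 12 to 22. Plk1 was 285, 219 and 123 in the run 12 to 16, which lacks Y-linked signal, and 672, 682 and 507 in the run 18 to 22, and both runs of codes 32 to 37 lay above the latter. The mean level of the list was 9.52 to 10.28 in the run 12 to 16, 10.45 to 11.13 in the run 18 to 22 and 10.86 to 11.43 on codes 32 to 37, so that over the whole list the run 18 to 22 overlapped codes 32 to 37. The random block applied 1 correlation, 0.103, to every gene. On the means of the runs, limma gave Plk1, Cdc20, Birc5 and Ccnb2 adjusted p-values of 0.15, 0.14, 0.097 and 0.13. With the level of Eif2s3y as a covariate, an alternative added after seeing the data, Plk1, Cdc20, Birc5 and Ccnb2 were still called. Eif2s3y itself was balanced between the sets (log2 difference -0.03), so this covariate could hardly change their difference and does not test it. On codes 44 to 54 the summed signal of the list, 35121 to 59273, lay below that of codes 32 to 37, 84535 to 120080.0.

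**Figure D4:**
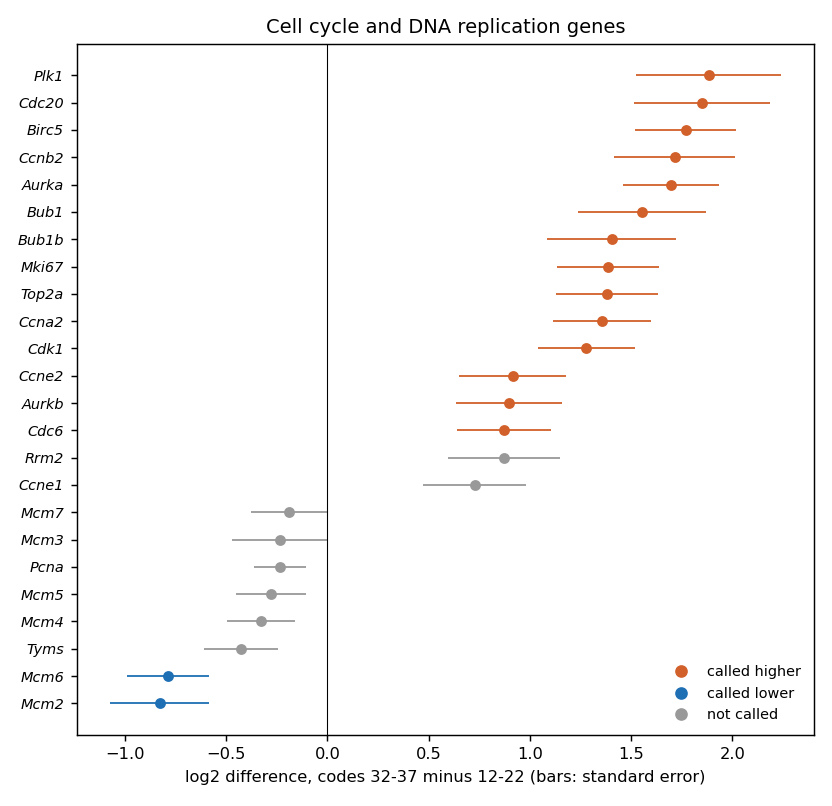
Log2 difference, codes 32 to 37 minus 12 to 22 (horizontal axis), with its standard error, for the 24 measured cell cycle and DNA replication genes. The 14 called higher lie between 0.87 and 1.88, and Mcm2 and Mcm6 were called lower, at -0.83 and -0.79.

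Promoters of late cell cycle genes are known to carry the cell cycle genes homology region, a short element with the core TTTGAA that is bound by repressor and activator complexes of the cycle, often near CCAAT boxes. The promoters of 4 of the mitotic genes above are printed to show it. They were chosen because the printed stretch holds the element. Birc5, whose difference was larger than those of Ccnb2 and Aurka, was passed over. Each stretch runs from 100 bases before to 50 bases after the start of the gene, 5' to 3' on the gene's strand, from RefSeq on GRCm38.p6, with TTTGAA in capitals.
Plk1, chr7:122159335-122159484, plus strand: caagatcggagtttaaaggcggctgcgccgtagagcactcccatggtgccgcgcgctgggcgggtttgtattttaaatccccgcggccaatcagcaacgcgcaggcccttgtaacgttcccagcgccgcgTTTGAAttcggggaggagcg
Cdc20, chr4:118437294-118437443, minus strand: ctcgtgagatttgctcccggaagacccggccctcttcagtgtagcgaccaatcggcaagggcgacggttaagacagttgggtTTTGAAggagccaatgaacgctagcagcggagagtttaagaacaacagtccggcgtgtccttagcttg
Ccnb2, chr9:70421505-70421654, minus strand: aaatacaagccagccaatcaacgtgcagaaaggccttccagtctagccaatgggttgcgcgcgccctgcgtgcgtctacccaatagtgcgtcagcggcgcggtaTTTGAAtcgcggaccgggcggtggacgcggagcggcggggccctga
Aurka, chr2:172370521-172370670, minus strand: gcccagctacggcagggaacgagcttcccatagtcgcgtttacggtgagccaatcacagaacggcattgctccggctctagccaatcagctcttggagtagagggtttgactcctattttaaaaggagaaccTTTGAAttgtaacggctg
The element begins at base 31, 5 and 33 after the start in Plk1, Ccnb2 and Aurka, and 18 bases before it in Cdc20.

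TTTGAA or its reverse complement TTCAAA stood in the 300 bases (250 before to 50 after the start) of 8 of the 11 higher cell cycle genes with a promoter in the table (72.7%), and of 1 of the 9 that were lower or not called (11.1%). Among the 9523 genes tested that had a promoter it stood in 14.3%, among 696 of the higher genes that held in 21.6%, and among 472 of the lower genes that held in 12.5%. CCAAT or its reverse complement ATTGG stood in 9 of the same 11 (81.8%), in 7 of the 9 (77.8%) and in 42.7% of all. These 2 elements were searched after the calls had been seen, a match is not a binding site, and no test was made.

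Antigen presentation genes were higher in part. Of 12 measured genes of MHC class II and costimulation 6 were higher at all 3 times and 0 lower, with a median of 1.00, and the count was 6 in both alternatives above. By comparison, 7.43% of all genes tested were higher at all 3 times. The chains that display peptides to CD4 T cells were among them: H2-Eb1 gave 478 and 465 at 0 h, 480.0 and 450.3 at 1 h, and 888 and 642 at 4 h on codes 12 to 22, against 1632 and 1426 at 0 h, 1841 and 1694 at 1 h, and 1906 and 1525 at 4 h on codes 32 to 37 (log2 difference 1.57, SE 0.15, adjusted p = 0.00028). H2-Aa lay between 1251 and 2356 on codes 12 to 22 and between 3042 and 4965 on codes 32 to 37 (1.26, adjusted p = 0.0017), and H2-Ab1 differed by 1.12 (adjusted p = 0.011). Cd74, the invariant chain that guides them, lay between 867 and 2098 on codes 12 to 22 and between 3333 and 4145 on codes 32 to 37 (1.49, adjusted p = 0.00075).

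The costimulatory ligand Cd86 gave 393 and 378 at 0 h, 319.8 and 398 at 1 h, and 276 and 383 at 4 h on codes 12 to 22, against 1209 and 869 at 0 h, 1338 and 945 at 1 h, and 2334 and 1852 at 4 h on codes 32 to 37, with all of codes 32 to 37 above all of codes 12 to 22 (1.87, adjusted p = 0.00078). Cd274, the inhibitory ligand PD-L1, differed by 1.14. Ciita, the factor that switches class II genes on, had a difference of 0.11 (adjusted p = 0.67) and was dim on all arrays, and Cd40, Cd80, Cd83 and Icosl were not called.

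Interferon response genes were higher in part. Of 22 measured 9 were higher and 0 lower, 5 of them at all 3 times, with a median of 0.62, and 21 of the 22 had values above 0. Beside this, 9.1% of all genes tested were higher, 7.43% at all 3 times. The count of higher members was 14 without codes 36 and 37, 5 with the runs as a random block and 4 without code 14. Irf7, the factor that amplifies interferon production, gave 737 and 770.2 at 0 h, 971 and 887 at 1 h, and 1473 and 1319.5 at 4 h on codes 12 to 22, against 2542 and 1954 at 0 h, 2734 and 2360.1 at 1 h, and 2654 and 2470.2 at 4 h on codes 32 to 37 (log2 difference 1.28, SE 0.14, adjusted p = 0.00051). Oasl1, a regulator of Irf7 translation, lay between 178 and 792 on codes 12 to 22 and between 551 and 1256 on codes 32 to 37 (1.23, adjusted p = 0.0067), with the highest signals of codes 12 to 22 at 4 h. Ifit2 and Oasl2 were called, by 0.89 and 0.86, with a gap that was 1.27 and 1.21 at 0 h but 0.40 and 0.50 at 4 h. Mx1 had -0.60 and was not called.

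Granulocyte-linked genes were lower in part on codes 32 to 37. Of 8 measured neutrophil markers 4 were lower and 0 higher, against the 6.31% of all genes tested that were lower, with a median of -0.65. The count was 3 without codes 36 and 37 and 3 with the runs as a random block, S100a9 being the member lost. Mmp9, gelatinase B, gave 503 and 483 at 0 h, 503 and 436 at 1 h, and 1039.8 and 1121 at 4 h on codes 12 to 22, against 95.4 and 106 at 0 h, 97.4 and 119 at 1 h, and 109.5 and 171 at 4 h on codes 32 to 37 (log2 difference -2.31, SE 0.17, adjusted p = 5.9e-05), Mmp8, a collagenase, lay between 715 and 1040.5 on codes 12 to 22 and between 254 and 569.9 on codes 32 to 37 (-1.13, adjusted p = 0.0016), and S100a8, a calcium-binding alarmin, between 1090.0 and 2309 on codes 12 to 22 and between 377 and 1242 on codes 32 to 37 (-1.05, adjusted p = 0.0080). S100a9, its partner, overlapped at 1 h (-0.70, adjusted p = 0.050). The granule genes Ltf, Camp and Ngp and the receptor Csf3r were measured and not called, with values of 0.53, -0.15, -0.61 and -0.40. The granule genes Mpo, Elane, Prtn3 and Ctsg and the receptor Cxcr2, which define neutrophils more closely, did not pass the filter. The summed signal of the 13 neutrophil genes on the array was 4509 to 7772 on codes 12 to 22 and 2075 to 4388 on codes 32 to 37.

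Of the B cell markers 2 were measured, and both were lower at all 3 times. Over all genes tested 6.31% were lower, 4.91% at all 3 times. Ighm, the immunoglobulin mu chain, gave 1404 and 1105 at 0 h, 1409 and 1105 at 1 h, and 574 and 530.1 at 4 h on codes 12 to 22, against 262 and 209 at 0 h, 276 and 160.2 at 1 h, and 197 and 167 at 4 h on codes 32 to 37 (log2 difference -2.11, SE 0.19, adjusted p = 0.00026), and 2 of its 4 probe sets were called. Cd79b, a B cell receptor signalling chain, lay between 104 and 355 on codes 12 to 22 and between 25.9 and 201 on codes 32 to 37 (-1.47, adjusted p = 0.0013). Of 4 measured T cell markers Cd28, a costimulatory receptor, was lower (-0.65, adjusted p = 0.027), but not without codes 36 and 37 or with the runs as a random block. Of 5 measured erythroid and megakaryocyte genes Pf4 and Ppbp, chemokines stored in platelets, were lower, by -1.05 and -0.88. Pf4 was among the brightest transcripts of both sets, between 31339 and 41966 on codes 12 to 22 and between 13921 and 22141 on codes 32 to 37. Itga2b, Klf1 and Epor, which define those lineages, were not called.

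Myeloid surface and scavenger genes gave few calls, beside 9.1% higher and 6.31% lower over all genes tested. Of 13 measured macrophage markers 2 were higher and 0 lower, 4 higher without codes 36 and 37 and 1 with the runs as a random block. Among 14 measured uptake and scavenger receptors 1 was higher and 2 lower, and 0 and 2 with the runs as a random block. Neither count is read as a result about its list. Fcgr1, the high-affinity IgG receptor, was higher at all 3 times, between 2297 and 6138 on codes 12 to 22 and between 4445 and 12231 on codes 32 to 37 (0.80, adjusted p = 0.017). Marco, a scavenger receptor, was 5.87, 7.47, 7.61 and 6.87 at 0 h and 1 h on codes 12 to 22 and 211, 207, 119 and 410.1 on codes 32 to 37. At 4 h its sets overlapped, at 666 and 914 on codes 16 and 22 against 588 and 1044 on codes 34 and 37 (adjusted p = 0.023, 0.050 with the runs as a random block). Adgre1, Cd68, Csf1r, Mertk and Lyz2 were not called. Chil3, a chitinase-like protein, was lower at all 3 times, between 246 and 554 on codes 12 to 22 and between 59.9 and 145 on codes 32 to 37 (-1.61, adjusted p = 0.0018).

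Among pattern recognition genes 4 of 20 were higher and 1 lower, beside 9.1% and 6.31% of all genes tested. With the runs as a random block 2 were higher, and 2 without code 14. Tlr5, the flagellin receptor, gave 34.7 and 66.8 at 0 h, 59.3 and 53.3 at 1 h, and 31.1 and 51.5 at 4 h on codes 12 to 22, against 417 and 242 at 0 h, 374 and 160.3 at 1 h, and 104 and 37.1 at 4 h on codes 32 to 37 (log2 difference 1.58, SE 0.36, adjusted p = 0.017) and overlapped at 4 h. It passed the filter on low signals through codes 32 to 37 alone, so the set where it was high also brought it into the count of 4. Tlr3, a sensor of double-stranded RNA, was higher at all 3 times (0.78, adjusted p = 0.010), and Clec4e, the Mincle receptor for mycobacterial glycolipid, at 0 h and 1 h, by 2.74 and 2.37, with -0.09 at 4 h (adjusted p = 0.041, 0.064 without codes 36 and 37). Clec7a, the beta-glucan receptor Dectin-1, was lower at all 3 times, between 1411 and 4124 on codes 12 to 22 and between 1049 and 1436 on codes 32 to 37 (adjusted p = 0.014). Tlr2, the receptor in the title of the series, was not called (log2 difference 0.42, SE 0.29, adjusted p = 0.38): at 0 h it gave 4129 and 2824 on codes 12 and 18 against 6046 and 5594 on codes 32 and 35, and at 4 h 32556 and 26264 on codes 16 and 22 against 19378 and 18050.0 on codes 34 and 37. The title's further genes are not analysed here.

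Il10, the cytokine of the title, was not called either (log2 difference 0.28, SE 0.65, adjusted p = 0.82). At 0 h it gave 315 and 245 on codes 12 and 18 against 36.3 and 59.6 on codes 32 and 35, at 1 h 267 and 1063 on codes 14 and 20 against 2127 and 1675 on codes 33 and 36, and at 4 h 1278 and 482 on codes 16 and 22 against 2980.3 and 1243 on codes 34 and 37. The difference was -2.22 at 0 h and above 0 later, and the test of 0 h alone gave an adjusted p of 0.16. Of 14 measured genes of the IL-10 pathway 2 were higher and 1 lower, beside 9.1% and 6.31% of all genes tested. Nfil3, a transcription factor induced by IL-10, was higher at all 3 times, 1.88, 2.32 and 1.09 (1.76, adjusted p = 0.0056). Maf, a factor that promotes Il10 transcription, was lower at all 3 times (-0.58, adjusted p = 0.016). Il1rn, the interleukin 1 receptor antagonist, was called (1.46, adjusted p = 0.035, 0.091 without codes 36 and 37) with -0.14 at 0 h and 2.32 at 4 h. Il10ra, Il10rb, Stat3 and Socs3 were not called.

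Averaged over the 3 times, the acute response genes gave no calls. Of 11 measured inflammatory cytokines and 14 measured NF-kB subunits and feedback genes, limma called 0, with 1 and 2 at an unadjusted p under 0.05. The shares called over all genes tested were 9.1% higher and 6.31% lower. The mean log2(signal + 16) level of the cytokines was 6.75 and 6.80 on codes 12 and 18 against 7.48 and 6.88 on codes 32 and 35 at 0 h, and 12.22 and 11.33 on codes 16 and 22 against 10.05 and 9.37 on codes 34 and 37 at 4 h. That of the NF-kB genes at 4 h was 12.97 and 12.58 against 12.25 and 12.03 on the same arrays, so in both lists codes 34 and 37 lay below codes 16 and 22 at 4 h. Il1b had the widest gap of the cytokines, at 99.9 and 103 on codes 12 and 18 against 3538 and 1131 on codes 32 and 35 at 0 h, and 43093 and 24692 on codes 16 and 22 against 20977 and 8062 on codes 34 and 37 at 4 h (log2 difference 2.39, SE 1.00, adjusted p = 0.14), so its gap changed sign between those times. Of 19 chemokines 2 were higher and 1 lower, close to the 9.1% and 6.31% of all genes tested. These 3 differed at all 3 times: Ccl8, a monocyte attractant (1.24, adjusted p = 0.0046), Cxcl12, a stromal chemokine (1.02, adjusted p = 0.0039), and Ccl6, which lay between 12901 and 16299 on codes 12 to 22 and between 5777 and 8581 on codes 32 to 37 (-1.08, adjusted p = 0.00054).

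Immediate early genes, transcription factors switched on without new protein synthesis, were higher for 5 of 24 and lower for 0, beside 9.1% and 6.31% of all genes tested. The counts were 3 and 1 without codes 36 and 37, and 3 and 0 with the runs as a random block. Nr4a2, an orphan nuclear receptor, gave 261 and 147 at 0 h, 274 and 235 at 1 h, and 150.2 and 147 at 4 h on codes 12 to 22, against 1558 and 887 at 0 h, 2307 and 2126 at 1 h, and 186 and 226 at 4 h on codes 32 to 37 (log2 difference 1.99, SE 0.38, adjusted p = 0.0083), so it was higher on codes 32 to 37 already at 0 h. Nr4a3, of the same family, lay between 5.87 and 577 on codes 12 to 22 and between 39.6 and 899 on codes 32 to 37, with its widest gap at 1 h, 4.56 (2.32, adjusted p = 0.024, 0.058 without codes 36 and 37). The AP-1 members Fosl2, Fosl1 and Fos were higher by 1.55, 0.91 and 0.71, and Jun, Junb, Egr1 and Atf3 were not called. The 1 h values of codes 12 to 22 include code 14, with 5.87 for Nr4a3 against 21.6 on code 20.

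Matrix remodelling genes moved both ways. Of 13 proteases and inhibitors 6 were higher and 2 lower, beside 9.1% and 6.31% of all genes tested, the 2 lower being Mmp8 and Mmp9. With the runs as a random block 4 were higher and 2 lower, and the same counts came without code 14. Timp1, a secreted metalloproteinase inhibitor, gave 661 and 1001 at 0 h, 622 and 866 at 1 h, and 990.1 and 1047 at 4 h on codes 12 to 22, against 2808 and 3050.0 at 0 h, 2491 and 3083 at 1 h, and 3790.2 and 4552 at 4 h on codes 32 to 37 (log2 difference 1.91, SE 0.14, adjusted p = 5.9e-05). Timp3, which binds the matrix, lay between 104 and 230.1 on codes 12 to 22 and between 555 and 1031 on codes 32 to 37 (2.02, adjusted p = 0.00050), and Mmp19 between 39.6 and 214 on codes 12 to 22 and between 169.9 and 832 on codes 32 to 37 (1.83, adjusted p = 0.0036). Tgm2, a transglutaminase, lay between 2993 and 9138 on codes 12 to 22 and between 12572 and 17295 on codes 32 to 37 (1.81, adjusted p = 0.00083). Among 16 genes of the TGF-beta pathway 3 were higher and 1 lower, beside 9.1% and 6.31% of all genes tested. The ligands Tgfb3 and Tgfb2 and the target Id3 were higher, by 1.63, 1.02 and 0.82, and the receptor Tgfbr1 was lower, between 4486 and 9272 on codes 12 to 22 and between 2554 and 5354 on codes 32 to 37 (-0.83, adjusted p = 0.0010). Of 16 integrins and adhesion genes 1 was higher, Itgb3 (1.48), and 2 lower, Itga6 and Itgav (-0.97 and -0.63), beside the same 9.1% and 6.31%. Itgav had 0.079 as its adjusted p with the runs as a random block. Without codes 36 and 37 that list had 3 higher and 2 lower.

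**Figure D5:**
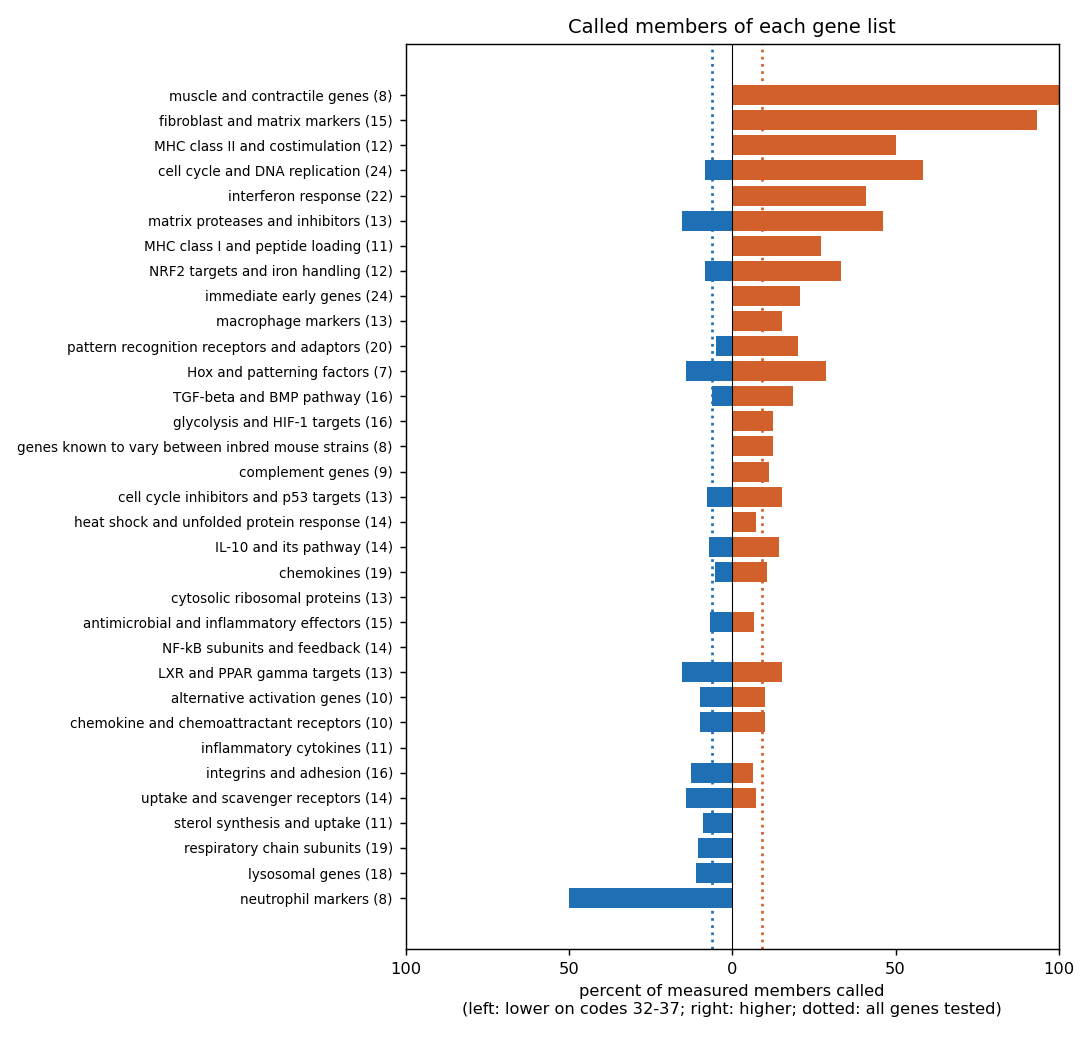
Percent of the measured members of each gene list called higher (right, orange) or lower (left, blue) on codes 32 to 37, for the 33 lists with at least 7 measured members, whose number stands in parentheses. Dotted lines mark the 9.1% higher and 6.31% lower of all 11721 genes tested, and the contractile, matrix, MHC class II, cell cycle and interferon lists stand at the top.

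The difference between the sets changed with time for 94 genes (0.802% of those tested) by limma's interaction test. Of these, 3 also held at all 3 times, beside 1447 of the 11721 genes tested. To hold, a gene had to differ in the same direction at each time, so a small overlap was partly built in. Most of the genes that held were not called as changing with time, which does not show that their differences stayed equal. Rasgrp3 was one of the 3, with its gap narrower at 4 h (adjusted p = 0.022). Without codes 36 and 37 the interaction test called 0 probe sets, with 2459 at an unadjusted p under 0.05 and 0.1 as its lowest adjusted p.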

How the data were processed

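Total RNA of 18 samples was hybridised to Affymetrix 3' expression arrays. The authors deposited linear signal intensities, 1 per probe set and array, made with MAS5 and GCOS per the submitters' processing notes, versions and settings not given there. All arrays shared a trimmed mean intensity (2nd to 98th percentile) of 500, which is what scaling to a common target leaves and which hides any change in total RNA.

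Intensities were taken as log2(signal + 16) from the deposited values, without renormalizing. A probe set stayed in where it lay above the median of its array on at least 4 of the 18 arrays, controls left out, which left 25775 of 45101. Names came from the platform annotation, updated by gene identifier through RefSeq (GRCm38.p6): 34958 probe sets carry a single symbol, of which 34754 matched, 932 carry several and 9147 none. Each gene's brightest kept probe set over the 12 arrays stood for it. Other probe sets of the 137 genes named by the rules below gave 0 calls in the opposite direction. This was not counted for the further list members named. A gene whose brightest probe set was not called could still have calls on others, as Rps20 did. The reverse also occurred, and a called gene could have other probe sets that were not called. For example, 1 of 2 was called for Cxcl12, Fcgr1, Tlr3 and Mmp19, 1 of 3 for Tgfbr1 and Tfrc, and 2 of 4 for Tpm2.

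R 4.3.3 and limma 3.58.1 (lmFit, eBayes) fitted the array set with time as a block over the 12 arrays, adjusted over all probe sets kept by Benjamini-Hochberg, threshold 0.05. A mean per set and time gave the 0 h test and the interaction with time. The fit of the array set was tested on simulated data with planted differences between the sets. Those data held no planted interaction and no correlation within runs, and the 0 h test was not checked on them. "Called", "higher" and "lower" refer to the threshold. The number of arrays limits the precision.

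The members and the 45 gene lists (635 genes, of which 484 were measured) were chosen with earlier results of these data known. Genes named are Il10 and Tlr2, the 12 largest differences each way that held at all 3 times, up to 4 called members of each list by size or else the 2 brightest, measured sex-linked genes, and the 6 genes with the lowest interaction p. Further list members are named to complete a group and were chosen after their values were seen. Groups came from the times and codes in the titles, replicates were numbered in accession order, and no number pairs samples. Alternatives were other pseudocounts, filters, scalings and variance models, arrays left out, and the code runs as a block. The replicates had no identical files, and every column of the table is a sample of the series.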

Additional observations from a re-analysis of the deposited data

Results flagged for a closer look

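For 7 of the genes named, the difference between the array sets changed with time by limma's interaction test on a mean per set and time. Rasgrp3 (adjusted p = 0.022) had differences of -4.04, -4.05 and -1.25 at 0, 1 and 4 h.

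Of the other 6, 5 had their widest gap at 4 h. Fnip2, a partner of folliculin (adjusted p = 0.0078), gave 3132 and 3097 at 0 h, 2571 and 3383 at 1 h, and 1323 and 1552 at 4 h on codes 12 to 22, against 1512 and 2056 at 0 h, 1783 and 2036 at 1 h, and 11791 and 12080.0 at 4 h on codes 32 to 37. Lhfpl2 (adjusted p = 0.0078) had differences of 0.12, 0.54 and 3.96, and Irf2bpl (adjusted p = 0.0078) of -1.20, -1.27 and 2.94. Plekho1 (adjusted p = 0.012) had -0.69, -1.11 and 1.95. These 4 genes had lower signals at 4 h than at 0 h on codes 12 to 22 and higher ones on codes 32 to 37.

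Shisa3 (adjusted p = 0.012) went the other way: at 4 h it gave 6353 and 3305 on codes 16 and 22 against 84.7 and 96.7 on codes 34 and 37, while at 0 h and 1 h all signals of both sets were at most 74.3. Ikbke, a kinase of the interferon and NF-kB pathways (adjusted p = 0.012), had 1.41, 2.48 and -0.57, its widest gap being that at 1 h and its 0 h difference being called on its own (adjusted p = 0.014).

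At 4 h these differences rest on codes 16 and 22 against 34 and 37, and code 37 has a high actin ratio. Without codes 36 and 37 the adjusted p was 0.1 for each of the 7, while the remaining 4 h array of codes 32 to 37, code 34, gave 11791 for Fnip2, 10559 for Lhfpl2 and 84.7 for Shisa3, beside 12080.0, 12194 and 96.7 on code 37.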

How the results depend on the processing

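Against 3404 called probe sets with 12 arrays, there were 1797 without the filter (1092 higher, 705 lower) and 858 genes held at all 3 times, and without the time block 1378 (888 and 490) and 664 genes. With the code runs as a random block there were 2198, 879 of them lower, and on the means of the runs limma called 0 probe sets, 0 higher and 0 lower, with 0 genes held and 4907 probe sets at an unadjusted p under 0.05. Array weights gave 2295 lower. Leaving out 1 array at a time gave 883 to 1489 lower, the lowest without code 12, and 2276 to 3272 in all. Without code 14 there were 2423, 1465 higher and 958 lower. Other counts of the 12-array comparison stayed within 1.5 times.

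At 0 h the probe sets called were 564 with a pseudocount of 64, 795 with a trended, robust variance and 59 without the filter, against 336. Those whose difference changed with time were 314, 475 and 5, against 139, and 0 without codes 36 and 37. The causes were not tested.

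Of 111 called genes named, 97 were called without codes 36 and 37, 85 with the runs as a random block, 0 on the run means and 61 without the time block. With 1 array left out 86 to 103 were called, and with the level of Eif2s3y as a covariate, added after seeing the data, 109. That covariate was balanced between the sets and could hardly change their difference. None of the 111 changed sign in any of these alternatives. Il10, which was not called, reversed to -0.15, -0.02 and -0.0024 without codes 14, 22 and 34, to -0.085 with array weights, and ranged from -0.15 to 0.66 with 1 array left out. No paired analysis was possible because the labels number no replicates; the runs of codes stand in its place. Every list is described by counts alone. Signals near background, such as those of Dmkn, Itgb3 or Tet3 on the dimmer set, have folds that depend on the pseudocount.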

Other observations

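Iron, oxidant and nutrient genes that the comparison did not turn on differed as well. Of 12 measured targets of NRF2, the oxidant sensor, and iron genes, 4 were higher and 1 lower on codes 32 to 37, 3 and 1 without codes 36 and 37, and 2 and 1 with the runs as a random block. The shares over all genes tested were 9.1% and 6.31%. Slc7a11, the cystine transporter, was higher by 0.60, 1.49 and 1.03 at 0, 1 and 4 h (adjusted p = 0.0080), Srxn1, sulfiredoxin, lay between 1679.6 and 5807 on codes 12 to 22 and between 2492 and 17500.0 on codes 32 to 37 with the sets apart at each time (adjusted p = 0.0080), and Txnrd1, thioredoxin reductase, differed by 0.54 (adjusted p = 0.028, 0.056 with the runs as a random block). Tfrc, the transferrin receptor that brings iron into cells, was lower at 4923 and 5176 at 0 h, 5415 and 5407 at 1 h, and 4459 and 5655 at 4 h on codes 12 to 22, against 1433 and 2386 at 0 h, 1681 and 3120.4 at 1 h, and 2397 and 3759 at 4 h on codes 32 to 37. Hif1a, the hypoxia factor, and its target Slc2a1, a glucose transporter, were higher at all 3 times, by 1.22 and 0.90, but only these 2 of 16 glycolysis and HIF-1 genes were called, beside 9.1% higher over all genes tested.

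Apoe, a lipid carrier abundant in macrophages, was lower at all 3 times, between 15275 and 24873 on codes 12 to 22 and between 4365 and 11861 on codes 32 to 37 (log2 difference -1.33, adjusted p = 0.00089), and Fabp4, a fatty acid binding protein, was higher mainly at 4 h, by 2.82, with an adjusted p of 0.083 without codes 36 and 37. Hspb1, a small heat shock protein, gave 152 and 155 at 0 h, 160.3 and 227 at 1 h, and 193 and 147 at 4 h on codes 12 to 22, against 504 and 514 at 0 h, 403 and 409 at 1 h, and 358 and 479 at 4 h on codes 32 to 37. Sesn1, a p53 target, was lower, by -1.57, and Cdkn2c, an inhibitor of CDK4 and CDK6, higher, by 1.21. The patterning factors Tbx15 and Twist2 were dim and higher, between 15.3 and 56.1 on codes 12 to 22 and between 78.4 and 196 on codes 32 to 37 for Tbx15 (log2 difference 1.49). Cytosolic ribosomal protein genes, by the brightest probe set, gave 0 calls among 13 by limma and 0 at an unadjusted p under 0.05, with values of 0.03 for Rps14 and -0.03 for Rps20. Dimmer probe sets of Rps20 were called lower by limma, at -1.04 (adjusted p = 0.0024) and -0.69 (adjusted p = 0.019). Of 8 genes known to differ between inbred strains 1 was called higher, beside 9.1% of all genes tested. It was Trim12a (log2 difference 0.60, adjusted p = 0.049, 0.065 without codes 36 and 37).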
